A study of Caenorhabditis elegans with 6 samples.

Results

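Genes that nerve cells use to make, store, release and sense transmitters were examined in *C. elegans* exposed to RPW-24, a synthetic compound studied for its effect on nematode immune defenses. The set holds 36 genes, listed by name for synaptic vesicles, transmitter synthesis and transport, channels and receptors, of 17118 genes that the array reads with a probe set naming 1 gene. All 36 were found. Each is given by its probe set (a group of short probes for 1 transcript) with the highest mean log2 intensity over the arrays, and 20 of the 36 have more than 1 probe set. The tested animals were wild-type N2 kept for 15 hours at 15°C in liquid medium with 70 µM RPW-24, and the control animals were N2 kept the same way with the solvent DMSO alone. Both media held 1% DMSO and *E. coli* OP50 as food, and all animals had been raised at 20°C on OP50 to the late L4 larval stage. RNA came from whole animals, with 3 biological replicates per group lettered G, H and I, 1 array each and 6 arrays in all, and the design text has the 2 exposures of a replicate made in parallel. Intensities are linear, per probe set, as deposited, and the number of arrays limits their precision.

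A nerve cell packs transmitter into synaptic vesicles, carries vesicle precursors down the axon, docks vesicles at the active zone and fuses them with the membrane when calcium enters. Fusion is driven by SNARE proteins, of which synaptobrevin sits on the vesicle and syntaxin and SNAP-25 on the target membrane. In *C. elegans* most of these genes were found through mutants that move poorly (*unc*) or resist inhibitors of acetylcholinesterase (*ric*). Neurons are a small part of the mass of the animal, and several of the genes are also used in muscle, gonad or other tissues. In RNA of whole animals, fewer cells of a type and less RNA per cell cannot be told apart.

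Most of the 36 genes were read at or near the bottom of the scale. The table has a lowest intensity of 4.39, and 10 of the genes lay within 0.1% of it on all 6 arrays (27.8%, against 33.7% of all 17118 genes). In all, 20 had a mean within 2-fold of the lowest intensity (55.6%, against 50.6% of all genes), 5 lay between, and 11 had a mean log2 intensity of at least 5 (30.6%, against 43.02% of all genes). Of the pan-neuronal markers, *rgef-1*, an exchange factor for Ras-like proteins, was at the lowest intensity on every array, while *unc-119*, which encodes a lipid-binding trafficking protein, was well above it. The 11 brighter genes can be compared between groups, and a missing difference in the dimmer 25 does not show that they did not change.

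**Figure D1:**
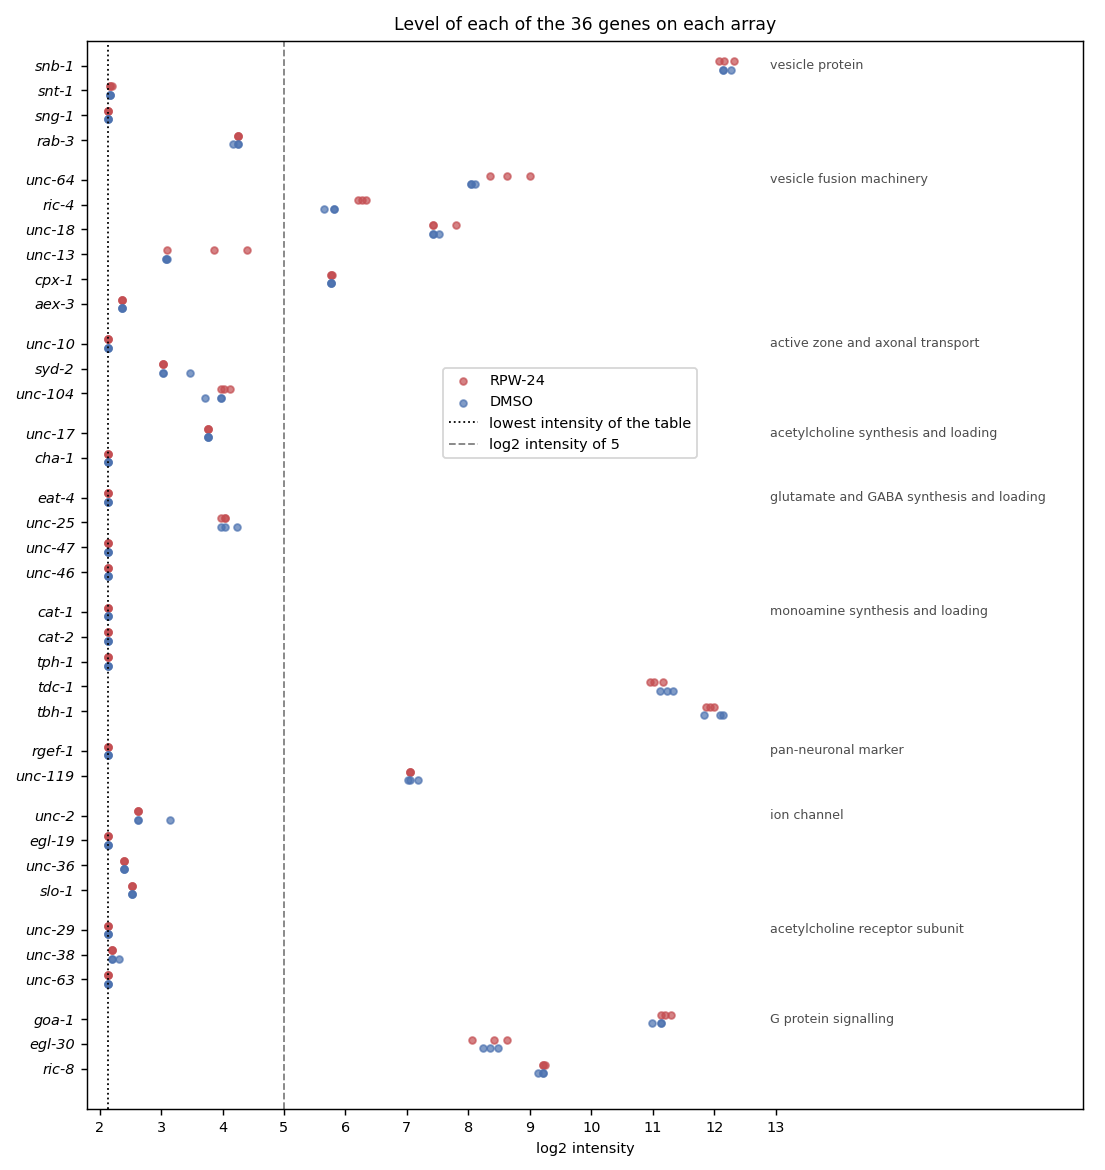
The log2 intensity (horizontal axis) of each of the 36 genes on the 3 RPW-24 arrays (red) and the 3 DMSO arrays (blue), grouped by role, with the lowest intensity of the table dotted and a log2 intensity of 5 dashed. The 11 genes right of the dashed line can be compared between groups, and levels of different probe sets cannot be ranked against each other.

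The deposited values also repeat exactly between arrays. Of the 36 genes, 13 held 1 single value on all 6 arrays (36.1%, against 37.03% of all genes; values were called equal if their log2 agreed to 6 decimals). Among the 11 brighter genes, 6 had the same value on at least 2 arrays (54.5%, against 30.4% of all genes of that brightness). The interval of such a gene rests on fewer than 6 separate values.

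Of the 36 genes, 1 was higher in RPW-24 at a Benjamini-Hochberg adjusted p under 0.05 from limma, against 2.63% of all genes, and none was lower, against 1.08% of all genes. This count is near the background share. At an unadjusted p under 0.05 limma gave 2 higher and 0 lower, against 7.1% and 8.2% of all genes. An unmoderated test of each gene on linear intensities gave 0 and 0 after adjustment, and its share over all genes was not counted. None passed 3-fold with an unadjusted p under 0.025, against 1.63% higher and 0.38% lower of all genes. The median log2 fold change of the 36 was 0, as over all genes. Over the 11 brighter genes it was 0.02, against -0.07 over all 7365 genes of that brightness, with a range from -0.18 to 0.59. Among the 11 brighter genes the same test called 1 higher and 0 lower, against 5.36% and 2.35% of all genes of that brightness, and at an unadjusted p under 0.05 2 and 0, against 14.2% and 18.2%. None of the 11 passed 3-fold, against 3.05% higher and 0.801% lower. Fitted to brighter probe sets alone, limma called 1 higher and 0 lower, against 10.3% and 6.8%, and adding a block for the letter gave 1 and 0 there, against 10.1% and 4.34%. With the block and no filter it called 0 and 0 of the 36, against 0.835% and 0.111% of all genes. A two-sided exact permutation test of a single gene has a smallest possible p of 0.1 here and was not used for calls.

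**Figure D2:**
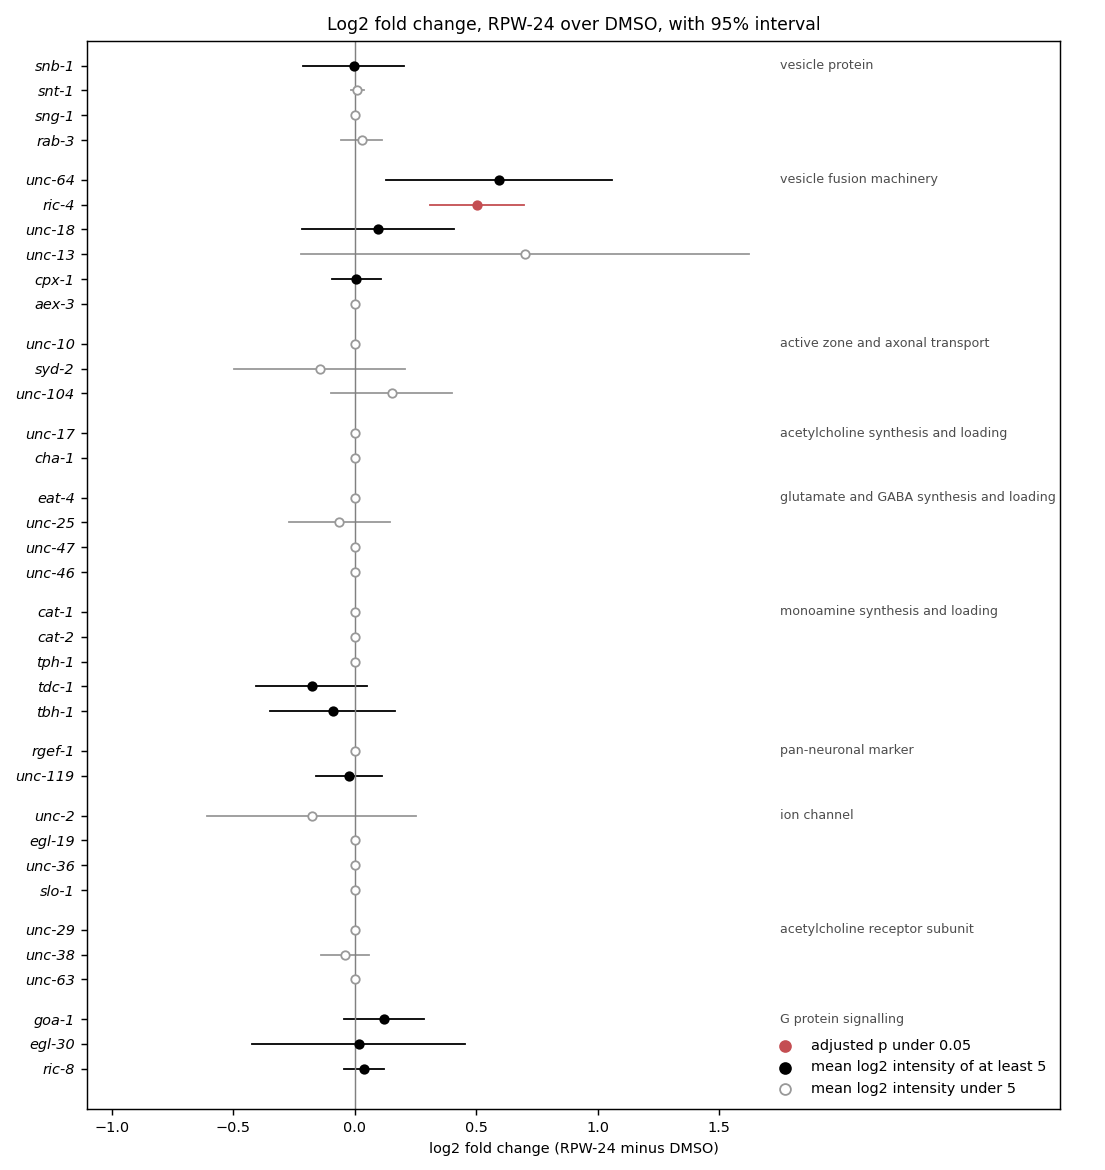
The log2 fold change of each of the 36 genes, RPW-24 minus DMSO (horizontal axis), with the 95% interval from limma where the values are not all equal. Only *ric-4* (red) passed an adjusted p under 0.05. Filled points have a mean log2 intensity of at least 5, and the open points near 0 are mostly genes at the bottom of the scale.

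The gene that rose was *ric-4*, which encodes SNAP-25, a SNARE of the target membrane. In the order G, H and I, used for all genes, its intensity was 73.7, 76.7 and 80.4 in RPW-24, against 50.02, 56.5 and 56.5 in DMSO. All RPW-24 arrays lay above all DMSO arrays, and 2 of the DMSO arrays held the same value. The means were 76.9 ± 3.33 in RPW-24 and 54.3 ± 3.74 in DMSO (SD, n = 3 each), a 1.42-fold difference. The log2 fold change was 0.50 (standard error 0.07, 95% interval 0.31 to 0.70, adjusted p = 0.0425 from limma), with 0.56, 0.44 and 0.51 within the pairs G, H and I. A dimmer second probe set of *ric-4* read 24.4, 24.9 and 34.5 in RPW-24, against 21.5, 16.2 and 19.1 in DMSO. Its groups did not overlap either, with a log2 fold change of 0.55 (adjusted p = 0.275 from limma). The call is close to its threshold. For the brighter probe set, limma with the letter as a block gave an adjusted p of 0.124, and without any 1 of the 6 arrays it lay between 0.0773 and 0.131, with log2 fold changes of 0.44 to 0.53. In the fit to brighter probe sets it was 0.0142, and 0.0357 there with the block. Rescaling the arrays made the log2 difference of *ric-4* smaller, and centring shifts all genes down. Centring on the median of all probe sets left 0.364 (adjusted p = 0.0232 from limma). Centring on the median of those above the lowest intensity left 0.410 (adjusted p = 0.0151 from limma). A further quantile normalization left 0.355, which did not pass (adjusted p = 0.0674 from limma).

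*unc-64*, which encodes syntaxin, the partner of SNAP-25 on the target membrane, had the largest log2 fold change of the 11 brighter genes. It read 512, 326 and 396 in RPW-24, against 264, 263 and 276 in DMSO. The DMSO arrays were close together, the RPW-24 arrays were spread, and the groups did not overlap. The means were 411 ± 93.7 in RPW-24 and 268 ± 7.34 in DMSO (SD, n = 3 each). The log2 fold change was 0.59 (95% interval 0.13 to 1.06), with 0.95, 0.31 and 0.52 within the pairs, and it did not pass the test (adjusted p = 0.214 from limma, unadjusted p = 0.0223). Under the same rescalings, in the same order, the difference of *unc-64* fell to 0.455, 0.501 and 0.526 on the log2 scale. It passed with either centring (adjusted p = 0.0427 and 0.0302 from limma) but not after quantile normalization (adjusted p = 0.221 from limma). *unc-64* is read by 1 probe set, of a kind that can match several transcripts. *ric-4* and *unc-64* were the 2 genes of the 36 whose RPW-24 arrays all lay above the DMSO arrays, against 8.4% of all genes and 16.2% of the brighter ones. None of the 36 had all RPW-24 arrays below, against 10.4% of all genes and 22.7% of the brighter ones.

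**Figure D3:**
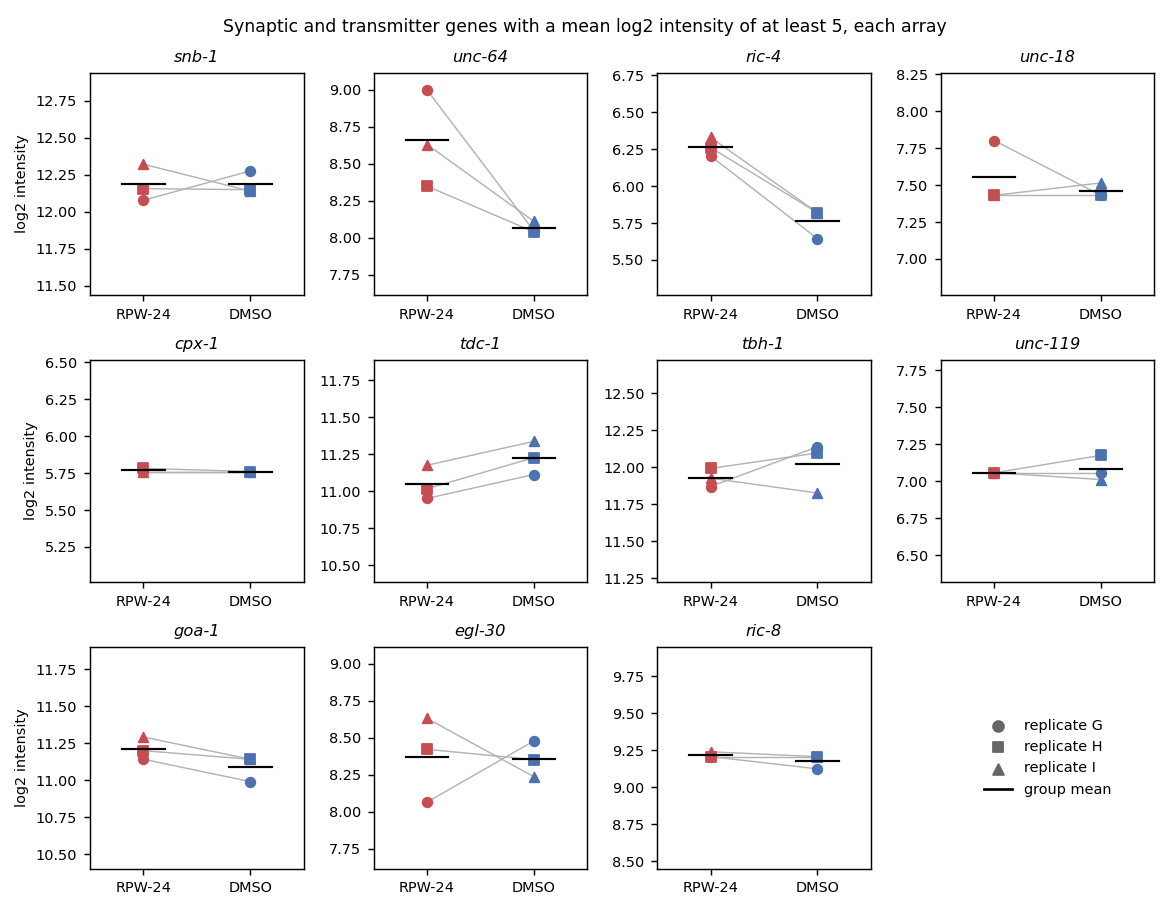
The log2 intensity (vertical axis, the same span in each panel) of the 11 brighter genes on each array, RPW-24 left and DMSO right, with lines joining the arrays of a replicate letter and bars at group means. In *unc-64* and *ric-4* all RPW-24 points lie above all DMSO points, and in the other 9 panels the groups overlap or touch.

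The third SNARE, *snb-1*, encodes the synaptobrevin of the vesicle and was the control gene of the quantitative RT-PCR in the same study. The paper states that, in its array data, *snb-1* expression was unvarying in these conditions. The intensity of *snb-1* was 4324, 4566 and 5119 in RPW-24, against 4962, 4544 and 4514 in DMSO. The groups overlapped, and the letters moved in different directions, by -0.20, 0.01 and 0.18 on the log2 scale. The means were 4669.8 ± 407 in RPW-24 and 4673 ± 251 in DMSO (SD, n = 3 each), and the log2 fold change was -0.00 (95% interval -0.21 to 0.20, adjusted p = 1 from limma). With arrays centred on the median of all probe sets, or of those above the lowest intensity, this probe set had -0.142 and -0.096. The adjusted p were 0.161 and 0.294 from limma. After a further quantile normalization it had -0.065 (adjusted p = 0.85 from limma). The second probe set had a log2 fold change of 0.03 (95% interval -0.27 to 0.33) without such scaling. A difference within the bounds of these 95% intervals in either direction is not excluded by these arrays.

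The other vesicle proteins were dim. *snt-1*, the calcium sensor synaptotagmin, read 4.58 on 1 RPW-24 array and 4.47 on the other 5 arrays. *sng-1*, synaptogyrin, was at the lowest intensity on all 6. *rab-3*, a small GTPase of the vesicle surface, read 19.1 on all RPW-24 arrays, against 17.96, 19.1 and 19.1 in DMSO. In *snt-1* and *rab-3* 1 array differed from the other 5. A missing difference at such levels does not show that these genes did not change.

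Other fusion genes did not separate. *unc-18*, whose product binds syntaxin, read 223, 173 and 173 in RPW-24, against 173, 173 and 183 in DMSO, a log2 fold change of 0.10 (95% interval -0.22 to 0.41). Its second probe set had -0.16 (95% interval -0.44 to 0.12), so the 2 probe sets differed in sign. *cpx-1*, complexin, which clamps and promotes fusion, read 54.2 on 5 arrays and 55.02 on the RPW-24 array of H. *unc-13*, which primes vesicles for release, read 8.55, 14.6 and 21.1 in RPW-24, against 8.55, 8.47 and 8.47 in DMSO. Of the RPW-24 arrays 2 lay above the DMSO range, and the log2 fold change of 0.70 (95% interval -0.22 to 1.62) did not pass (adjusted p = 0.481 from limma). *aex-3*, an exchange factor for RAB-3, held 5.12 on every array.

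At the active zone and in axonal transport no gene reached a mean log2 intensity of 5. *unc-10*, which encodes RIM, was at the lowest intensity on 5 arrays and read 4.40 on the RPW-24 array of H. *syd-2*, the scaffold liprin, read 8.17, 8.16 and 8.17 in RPW-24, against 8.16, 8.17 and 11.03 in DMSO. *unc-104*, the kinesin motor that carries vesicle precursors, read 16.2, 15.8 and 17.46 in RPW-24, against 15.8, 15.8 and 13.1 in DMSO, with a log2 fold change of 0.15 (adjusted p = 0.622 from limma).

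The genes that define the main transmitter classes were nearly all at the bottom of the scale. *unc-17* and *cha-1*, which share a locus and encode the vesicle transporter and the synthesis enzyme of acetylcholine, read 13.6 on every array and 4.39 to 4.40. *eat-4*, the vesicle transporter of glutamate, was at the lowest intensity on every array. For GABA, the synthesis enzyme *unc-25* read 16.5, 15.7 and 16.5 in RPW-24, against 15.7, 16.5 and 18.9 in DMSO, while the transporter *unc-47* and its sorting partner *unc-46* did not exceed 4.41. The monoamine transporter *cat-1*, the dopamine enzyme *cat-2* and the serotonin enzyme *tph-1* did not leave the lowest intensity. These values set no limit on a change in these neurons.

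Of the 5 monoamine genes, 2 had a mean log2 intensity of at least 5. *tdc-1* makes tyramine from tyrosine, and *tbh-1* makes octopamine from tyramine. Both are known to be expressed in the sheath cells of the gonad besides a few neurons. *tdc-1* read 1979, 2071 and 2312 in RPW-24, against 2214, 2396 and 2586 in DMSO. It was lower in RPW-24 within each of the 3 pairs, by -0.16, -0.21 and -0.16 on the log2 scale, and was the only gene of the 36 lower in all 3 pairs (against 15.6% of all genes and 33.7% of the brighter ones), but the groups overlapped. Its log2 fold change was -0.18 (95% interval -0.41 to 0.05, adjusted p = 0.466 from limma, 0.127 with the replicate block). With arrays centred on the median of all probe sets, or of those above the lowest intensity, all genes shift down, and *tdc-1* then passed with -0.32 and -0.27 (adjusted p = 0.022 and 0.0246 from limma). A second probe set of *tdc-1* held 616 on 5 of the 6 arrays and 637 on the DMSO array of H, and its remaining probe set was at the lowest intensity. *tbh-1* read 3745, 4077 and 3894 in RPW-24, against 4512, 4382 and 3633 in DMSO, a log2 fold change of -0.09 (95% interval -0.35 to 0.16). The summed intensity of germline and oocyte markers, given further on, was also lower in RPW-24, and the part of the gonad in these values was not tested.

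The channels and receptors gave no level to compare. *unc-2*, the calcium channel of the synapse, read 6.14 on 5 arrays and 8.88 on the DMSO array of G. *egl-19*, the calcium channel of muscle, was at the lowest intensity, and *unc-36*, an accessory subunit of calcium channels, and *slo-1*, a calcium-gated potassium channel, held 5.28 and 5.75 on all arrays. Of the subunits of the levamisole-sensitive acetylcholine receptor of body muscle, *unc-29* and *unc-63* stayed at the lowest intensity, and *unc-38* read 4.59 on 5 arrays and 4.99 on the DMSO array of G.

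The G protein genes were all bright. *goa-1*, the Go subunit that restrains acetylcholine release, read 2260.3, 2353 and 2509 in RPW-24, against 2036, 2260.3 and 2260.3 in DMSO. It was higher in RPW-24 in each pair, as were *ric-4* and *unc-64* (3 of 36, against 11.3% of all genes and 21.5% of the brighter ones), and the groups touched at a repeated value. The log2 fold change was 0.12 (95% interval -0.05 to 0.29, adjusted p = 0.508 from limma), and its other 2 probe sets had -0.02 and 0.18. *egl-30*, the Gq subunit that promotes release, read 268, 343 and 396 in RPW-24, against 357, 327 and 301 in DMSO. The letters went apart, with -0.41, 0.07 and 0.39, and the log2 fold change was 0.02 (95% interval -0.42 to 0.46).

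For *ric-8*, which encodes an exchange factor for these G proteins, the 2 probe sets did not give the same picture. The brighter read 591, 591 and 605 in RPW-24, against 558, 591 and 591 in DMSO, a log2 fold change of 0.04. The dimmer read 199, 248 and 255 in RPW-24, against 275, 306 and 317 in DMSO, with all RPW-24 arrays below all DMSO arrays. Its log2 fold change was -0.36 (95% interval -0.68 to -0.04, adjusted p = 0.268 from limma). The direction of *ric-8* is therefore not settled. Of the pan-neuronal markers, *unc-119* read 133 on all RPW-24 arrays, against 133, 144 and 129 in DMSO, a log2 fold change of -0.02 (95% interval -0.16 to 0.11).

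The rest of these pathways was taken from 7 further lists of neuronal genes, of which 253 genes were measured and 63 had a mean log2 intensity of at least 5. At an adjusted p under 0.05 from limma 4 of the 253 were higher, which is 1.58% against 2.63% of all genes, and 0 were lower, against 1.08% of all genes. At an unadjusted p under 0.05 from limma 17 were higher and 5 lower, which is 6.72% and 1.98%, against 7.1% and 8.2% of all genes. In the fit to brighter probe sets the order of the shares turned for the higher genes, with 10 of the 63 called (15.9%, against 10.3% of all genes of that brightness) and 2 lower (3.17%, against 6.8%). With the block in that fit the counts were again 10 and 2, against 10.1% and 4.34% of all genes of that brightness. In the fit to all probe sets none of 31 other vesicle release, 38 GABA and glutamate, 22 monoamine, 46 channel and 42 G protein genes passed. At an unadjusted p under 0.05 from limma these lists gave 1, 2, 0, 3 and 4 genes higher and 2, 0, 0, 1 and 0 lower. Of all genes 7.1% were higher and 8.2% lower at that threshold. Of 33 acetylcholine genes 2 were higher, and both were dim. *acr-18*, a receptor subunit, read 17.6, 17.2 and 15.6 in RPW-24, against 8.03, 8.03 and 8.90 in DMSO (log2 fold change 1.01, adjusted p = 0.00474 from limma). *gar-1*, a muscarinic receptor, read 6.37, 6.58 and 5.59 in RPW-24, against 4.39, 4.39 and 4.39 in DMSO (adjusted p = 0.0356 from limma). With values under 32 set to 32 neither can differ, and with the replicate block their adjusted p were 0.0956 and 0.142.

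Of 43 transcription factors and other neuron markers, 2 were higher, and neither is a transcription factor. *egl-3*, a protease, and *egl-21*, a carboxypeptidase, cut neuropeptides from their precursors. *egl-3* read 285, 343 and 324 in RPW-24, against 174, 172 and 130.1 in DMSO, a log2 fold change of 1.01 (adjusted p = 0.0436 from limma, 0.175 with the block). *egl-21* read 634, 539 and 541 in RPW-24, against 381, 322 and 339 in DMSO, a log2 fold change of 0.72 (adjusted p = 0.0363 from limma, 0.0411 with the block). In both, all RPW-24 arrays lay above all DMSO arrays.

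Markers of other tissues moved beside these values. The summed intensity of 36 muscle genes was 107810 to 119299 in RPW-24, against 83354 to 98776 in DMSO. In the fit to all probe sets none passed an adjusted p under 0.05. At an unadjusted p under 0.05 from limma 10 were higher and 0 lower. Of all genes 7.1% were higher and 8.2% lower there, and of the brighter ones 14.2% and 18.2%. Of the 36 muscle genes 25 had a mean log2 intensity of at least 5. At an adjusted p under 0.05 the fit to brighter probe sets called 4 of these 25 higher and 0 lower. Of all genes of that brightness it called 10.3% and 6.8%. All RPW-24 arrays lay above the DMSO arrays for 13 of the 36 muscle genes, against 8.4% of all genes and 16.2% of the brighter ones. The sum of 36 germline and oocyte genes was 238687 to 268142 in RPW-24, against 286505 to 288130 in DMSO, with 1 gene lower (*pie-1*, a regulator of germ cell fate, log2 fold change -0.31, adjusted p = 0.0425 from limma, 0.137 with the block). At an unadjusted p under 0.05 from limma 16 of these 36 were lower and 0 higher. Of all genes 8.2% were lower and 7.1% higher there, and of the brighter ones 18.2% and 14.2%. In the fit to brighter probe sets 6 were lower at an adjusted p under 0.05, against 6.8% of all genes of that brightness. For 17 of the 36 all RPW-24 arrays lay below the DMSO arrays, against 10.4% of all genes and 22.7% of the brighter ones. Of 29 intestine genes 1 was higher (*pgp-3*, an efflux pump, log2 fold change 4.65, adjusted p = 0.00306 from limma). For 14 of the 29 all RPW-24 arrays lay above the DMSO arrays, and for 4 all lay below. Of all genes 8.4% lay above and 10.4% below, and of the brighter ones 16.2% and 22.7%. At an unadjusted p under 0.05 from limma 11 of the 29 were higher and 3 lower, against 7.1% and 8.2% of all genes. The fit to brighter probe sets held 26 of them. It called 7 higher and 2 lower at an adjusted p under 0.05, against 10.3% and 6.8% of all genes of that brightness. None of 24 hypodermis, 32 sperm and 14 glia and coelomocyte genes passed. With the block 2 of the 32 sperm genes were higher, against 0.835% of all genes. The sums of the hypodermis, sperm, glia and coelomocyte, and intestine lists overlapped between groups. At the lowest intensity on all arrays were 1 muscle, 0 germline, 1 intestine, 3 hypodermis, 4 sperm and 7 glia and coelomocyte genes. The median log2 fold change over brighter genes was 0.29 for muscle, -0.21 for germline, 0.22 for intestine and 0.60 for sperm, against -0.07 over all genes of that brightness. The part of these tissues in the values of *ric-4*, *unc-64* and *tdc-1* was not tested.

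**Figure D4:**
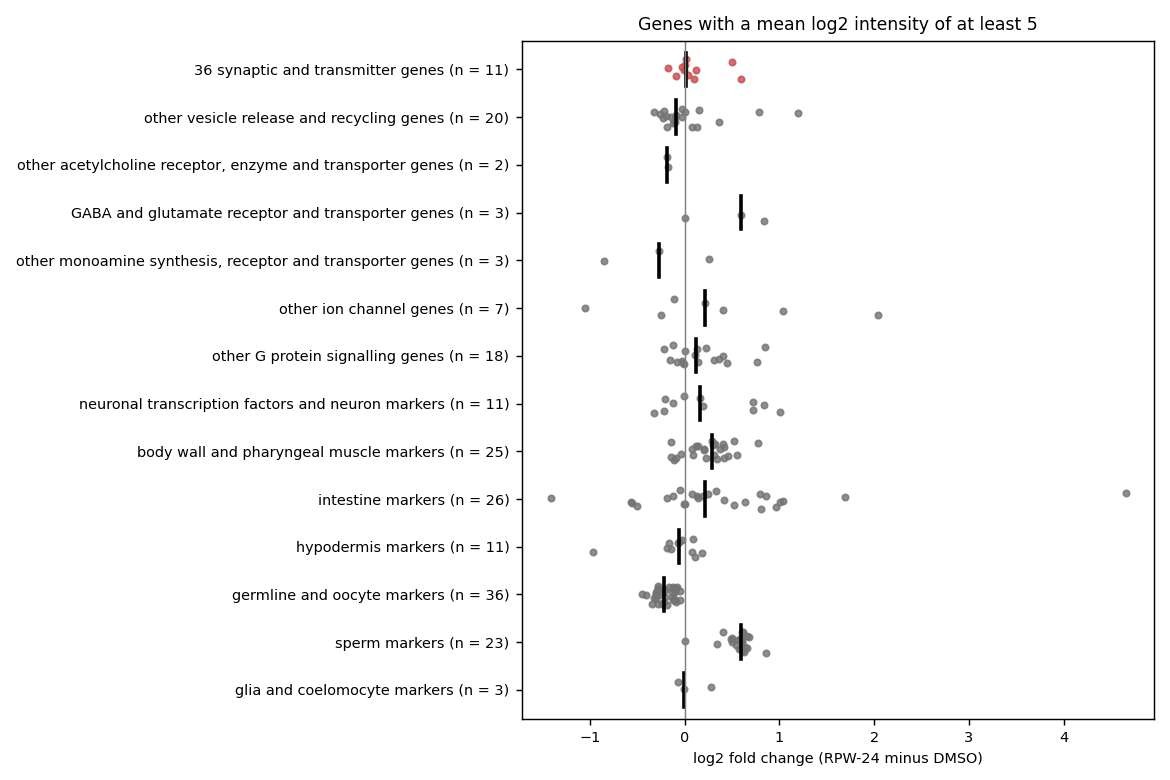
The log2 fold change, RPW-24 minus DMSO (horizontal axis), of genes with a mean log2 intensity of at least 5, for the 36 synaptic and transmitter genes (red) and 13 other lists (grey), with a bar at each median and n the genes shown. The synaptic genes have a median of 0.02, with *ric-4* and *unc-64* to the right, while germline genes lie left of 0 and most sperm genes right of it.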

How the data were processed

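By the methods, the authors ran GC-RMA with quantile normalization on Affymetrix arrays in GenePattern version 2.0, and the deposited values are linear intensities. Control probe sets (77 of 22625) were left out, and log2 values of 22548 were fitted in limma 3.58.1 under R 4.3.3 (lmFit, then eBayes with trend), RPW-24 minus DMSO, unpaired, with no filter, and p adjusted over all probe sets. Intervals use the moderated t of that fit. Genes were named from the array annotation. The script was tested on simulated data. Summaries and plots used Python 3.11.15, pandas 2.3.3 and matplotlib 3.10.9. The methods name a modified t-test, not rerun here; an ordinary unpaired t-test on linear intensities was an alternative. Pairs by letter come from the series design, which has both exposures of a replicate done side by side, with the title's letter taken as the replicate. Deviations from group means correlated at 0.0881, 0.144 and 0.138 within G, H and I, over 13787 probe sets above the lowest intensity, and between -0.0946 and -0.0323 across letters. The deviations of a group cancel by construction, so positive values within letters bring negative ones across letters. The values across letters are thus no separate evidence of pairing. The genes and lists were chosen with earlier results of these data known. The rule for named genes covered all 36, and in other lists up to 3 per direction at an adjusted p under 0.05. Median intensities were 9.83 to 9.98 in RPW-24 and 8.94 to 9.04 in DMSO, so the 6 arrays are not on 1 common distribution, and how quantile normalization was applied is not stated by the sources. Alternatives varied the block, filter, variance trend, scaling, probe set, floor, test, threshold and arrays. No sequences were printed, since none was used here.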

Additional observations from a re-analysis of the deposited data

How the results depend on the processing

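Of the 36 genes, the count higher was 1, and it was 0 with the replicate block, a further quantile normalization, values under 32 set to 32, the mean of all probe sets, the second probe set, an ordinary t-test, and at least 3-fold with an unadjusted p under 0.025. It was 0 to 0 without each array in turn. It was 2 at an unadjusted p under 0.05 and with arrays centred on either median, where *unc-64* also passed. The count lower was 0, and was 1 after a further quantile normalization, 20 with arrays centred on the medians of all probe sets and 19 with those above the lowest intensity, *tdc-1* among them both times. Centring shifts all genes by -0.14 and -0.09, constant ones included, so the median of the 36 was -0.14 and -0.093 there. Shares of all genes were counted only for the main fit and the fits with the block or the filter. Counts in the other settings therefore have no background beside them. The uncentred median of those with a mean log2 intensity of at least 5 was 0.016, with or without the block.

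In the other neuronal lists 4 of 253 genes were higher. There was 1 with the replicate block, and 10 of 63 over brighter probe sets (15.9%, against 10.3% of all genes of that brightness). Adding the block there gave 10 again (against 10.1%). The count was 1 without the variance trend and 1 by an ordinary t-test. Centring gave 12 on the medians of all probe sets and 13 on those of probe sets above the lowest intensity. The count was 2 without probe sets that can match several transcripts and 2 with the second probe set. It was 0 with values under 32 set to 32, 17 at an unadjusted p under 0.05, 1 at 3-fold, and 1 to 3 without each array. The count lower, 0, was 2 of 63 over brighter probe sets (3.17%, against 6.8%) and 2 there with the block (against 4.34%), 174 and 164 with centring, 7 after quantile normalization and 5 at an unadjusted p under 0.05. Here too, counts outside the main fit, the block and the filter have no share of all genes beside them.

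The sign of several log2 fold changes turned. With centring on the medians of all probe sets, and then of those above the lowest intensity, *snt-1* had -0.13 and -0.082, *rab-3* -0.11 and -0.064, *cpx-1* -0.13 and -0.085, *egl-30* -0.12 and -0.076, and *ric-8* -0.10 and -0.054, while *unc-18* and *goa-1* had -0.043 and -0.019 with the first only. After quantile normalization *rab-3* had -0.14, *unc-18* -0.036, *cpx-1* -0.15, *unc-104* -0.0083 and *egl-30* -0.061. The second probe set gave *unc-18* -0.16, *unc-104* -0.015 (also without probe sets that can match several transcripts), *goa-1* -0.017 and *ric-8* -0.36, and the mean of all probe sets gave *unc-18* -0.030 and *ric-8* -0.16. Without each array in turn *unc-18* lay between -0.028 and 0.16, *egl-30* between -0.11 and 0.17, *unc-25* between -0.12 and 0.013, and *unc-119* between -0.059 and 0.023. The causes were not tested. The block changed no other call of the 36 genes.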

Other observations

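Of the 253 genes of the other neuronal lists, 21 had all RPW-24 arrays above and 11 all below the DMSO arrays (8.3% and 4.35%, against 8.4% and 10.4% of all genes), so the higher share is near that of all genes. Those named here did not pass the adjusted threshold and were chosen after their values were seen. RNA came from whole animals, so the values of these listed genes need not come from neurons. *kqt-2*, a potassium channel subunit, read 123, 52.6 and 59.1 in RPW-24, against 19.2, 17.4 and 16.4 in DMSO. *itr-1*, the calcium release channel gated by inositol trisphosphate and also one of the intestine markers, read 469, 253 and 352 in RPW-24, against 165, 148 and 198 in DMSO. *glt-1*, a glutamate uptake transporter, read 1153, 1028 and 1415 in RPW-24, against 595, 647 and 759 in DMSO. Their log2 fold changes were 2.04, 1.03 and 0.84, with unadjusted p of 0.00309, 0.0129 and 0.00383 from limma and adjusted p of 0.0689, 0.155 and 0.0769.

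Below *egl-30* in its pathway, *egl-8*, a phospholipase C, read 144, 94.0 and 150.0 in RPW-24, against 75.6, 73.6 and 73.9 in DMSO, and *pkc-2*, a protein kinase C, read 47.2, 63.6 and 49.9 in RPW-24, against 29.6, 32.1 and 27.2 in DMSO (adjusted p of 0.165 and 0.0617 from limma). *ehs-1*, an endocytosis adaptor, read 1115, 1155 and 1262 in RPW-24, against 1362, 1477 and 1568 in DMSO, a log2 fold change of -0.32 (adjusted p = 0.128 from limma). Others higher at an unadjusted p under 0.05 included *mec-17*, a tubulin acetyltransferase of touch neurons (log2 fold change 0.73, adjusted p = 0.0544 from limma). *sbt-1*, a chaperone of the protease EGL-3, had 0.84 (adjusted p = 0.09), and *unc-44*, an ankyrin, 0.79 (adjusted p = 0.0993, both from limma). The rest were *glc-2* with 0.60, *unc-43* with 0.45, *cnb-1* with 0.31, *mec-12* with 0.20 and *slo-2* with 0.19. Their adjusted p were 0.184, 0.307, 0.143, 0.179 and 0.271 from limma. Lower at that threshold were also *best-7* with -1.05, *unc-37* with -0.22, *unc-40* with -0.20 and *snap-29* with -0.14 (adjusted p of 0.153, 0.132, 0.332 and 0.211 from limma).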
